A study of Mus musculus with 3 samples.

Results

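AP-1 is a family of dimeric transcription factors, and 7 of its genes were followed across the pituitary intermediate lobe (IL) of mice: Fos, Fosb, Fosl2, Jun, Junb, Jund and Atf3. They were chosen by name, as 7 of 17775 genes with a row in any of the 3 deposited count tables, and all 7 had a row in each table. Fos, Fosb, Junb and Atf3 are called here the induced members, because they are known for a brief burst of transcription after a stimulus, and Jund and Fosl2 the steady members. Jun stands between both groups and was kept apart. Each count table came from 1 droplet library of cells dissociated from dissected ILs of 3-month-old mice, 1 library per genotype. WT was Sox9iresCreERT2/+ and was pooled from males, P27NULL was Sox9iresCreERT2/+;p27-/- and was pooled from both sexes, and S2CK was Sox9iresCreERT2/+;Sox2fl/+;p27-/- and was also pooled from both sexes. The methods add a Rosa26 ReYFP reporter allele to every genotype. The Cre sits in the Sox9 locus and acts in the Sox9-expressing stem cells (SCs), so in S2CK the loss of 1 Sox2 copy was directed at SCs, while the melanotrophs around them, the hormone cells that fill the IL, were not targeted directly. The labels place the tamoxifen that activates the Cre at 4 weeks of age for all groups, while the study's text places it at birth.

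Fos proteins cannot pair with each other and bind DNA only as dimers with a Jun protein, whereas Jun proteins also pair among themselves, and Atf3, a related stress-responsive factor, pairs with Jun proteins and can repress its targets. Fos, Fosb, Junb and Atf3 belong to the immediate-early genes (IEGs), whose transcription is switched on through the MAPK and cAMP pathways without new protein synthesis and whose transcripts are short-lived. Jund is present in most resting cells and Fosl2 is induced late and held longer. In the pituitary, the cAMP and MAPK pathways carry the signals of hypothalamic hormones, and IEGs are also switched on by enzymatic dissociation of tissue, a step that all of these cells went through.

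The promoters of the 4 induced members are shown because they share a short stretch of letters near their start, and that of Fosl2 is shown beside them as a steady member. Each is the RefSeq window on GRCm38.p6 from 250 bases before to 50 bases after the annotated start, written along the gene's strand. Capitals mark TGACG on either strand, the core of the site that cAMP-responsive factors bind. The windows lie at chr12:85473640-85473939 on the plus strand for Fos, chr7:19309996-19310295 on the minus strand for Fosb, chr8:84978699-84978998 on the minus strand for Junb, chr1:191183284-191183583 on the minus strand for Atf3 and chr5:32136222-32136521 on the plus strand for Fosl2.
Fos: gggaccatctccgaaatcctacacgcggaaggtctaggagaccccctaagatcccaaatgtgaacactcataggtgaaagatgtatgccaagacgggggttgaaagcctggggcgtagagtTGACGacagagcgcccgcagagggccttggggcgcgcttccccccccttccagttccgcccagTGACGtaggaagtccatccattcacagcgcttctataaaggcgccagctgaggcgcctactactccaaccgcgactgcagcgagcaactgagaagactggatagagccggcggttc
Fosb: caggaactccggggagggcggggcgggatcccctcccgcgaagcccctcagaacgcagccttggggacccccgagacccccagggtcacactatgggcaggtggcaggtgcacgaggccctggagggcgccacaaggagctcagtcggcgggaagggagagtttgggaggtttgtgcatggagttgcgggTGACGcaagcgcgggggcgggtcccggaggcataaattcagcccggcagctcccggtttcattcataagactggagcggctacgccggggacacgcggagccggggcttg
Junb: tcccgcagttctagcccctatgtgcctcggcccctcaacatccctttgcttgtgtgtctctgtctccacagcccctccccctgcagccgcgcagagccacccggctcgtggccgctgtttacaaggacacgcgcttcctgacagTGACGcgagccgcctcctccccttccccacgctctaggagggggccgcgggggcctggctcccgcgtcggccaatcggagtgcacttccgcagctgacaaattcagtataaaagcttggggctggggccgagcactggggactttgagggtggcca
Atf3: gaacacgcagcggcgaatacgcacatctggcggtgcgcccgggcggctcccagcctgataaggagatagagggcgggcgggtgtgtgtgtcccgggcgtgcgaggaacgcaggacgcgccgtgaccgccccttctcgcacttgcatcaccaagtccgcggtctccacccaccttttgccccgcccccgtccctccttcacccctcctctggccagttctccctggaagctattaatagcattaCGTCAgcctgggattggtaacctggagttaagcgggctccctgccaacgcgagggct
Fosl2: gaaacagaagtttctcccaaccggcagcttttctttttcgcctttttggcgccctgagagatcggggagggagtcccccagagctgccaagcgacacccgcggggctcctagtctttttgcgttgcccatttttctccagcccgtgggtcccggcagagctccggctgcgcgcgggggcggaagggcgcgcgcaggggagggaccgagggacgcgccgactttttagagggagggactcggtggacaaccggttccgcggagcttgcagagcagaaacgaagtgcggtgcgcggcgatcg
TGACG was present in all 4 induced windows and in neither steady window, nor in that of Jun, against 20.8% of 32851 windows of the same length. It began 129 and 66 bases before the start of Fos, 60 before that of Fosb and 106 before that of Junb, and it lay on the opposite strand 7 bases before that of Atf3. The longer TGACGT, which contains TGACG, was in the windows of Fos and Atf3 (7.51% of all windows), and the full palindrome TGACGTCA was in none of the 7 (1.79%). The AP-1 site in its form TGANTCA was in none of the 7 (7.81%), and neither was the CArG box that serum response factor binds (1.63%). Other forms of these 2 sites, and bases outside the windows, were not searched. TATAAA was found in Fos and Junb (13.6%), 33 bases before the start of Fos but at the annotated start itself in Junb. CCAAT was found in Jun, Junb and Atf3 (37.4%), on either strand. A match of letters is a description of this window and not a bound site. Jund has 2 RefSeq transcripts and its window belongs to the outermost start, with 3 CpG dinucleotides and 46.7% G and C, against 58.7 to 68.3% G and C in the other 6 windows.

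The tables held 2020, 4153 and 3488 cells for WT, P27NULL and S2CK, with a median of 3642.5, 2740 and 4906.5 UMIs (unique molecular identifiers, each a counted transcript molecule) per cell, and at most 4 barcodes were shared by any pair of libraries. Cells under 1000 UMIs were present in WT alone, 162 of them. SC-like and melanotroph-like cells came from clusters made within each library and the other types from 1 clustering of all libraries, both named from marker genes, and cells whose 2 names clashed (35, 5 and 30) were left unnamed. This gave 136, 104 and 82 SC-like and 1243, 3526 and 2990 melanotroph-like cells. All 6 SC markers and all 7 melanotroph markers used were above their level in the other cells of every library. Cdkn1b, the gene that encodes P27, was counted at 50.2 CPM (counts per 1000000 UMIs of the cells summed, 95% Poisson interval 30.3 to 78.5) in SC-like cells of the library labelled P27NULL and at 47.0 (30.4 to 69.3) in those of WT, so its transcript level did not separate these libraries, and whether the counted 3′ end lies in the deleted part is not given in the sources used here. Sox2 was at 282, 309 and 135 CPM in SC-like cells of WT, P27NULL and S2CK. By the UMIs of Xist and Y-linked genes, 18.1% of melanotroph-like cells were called female in P27NULL and 96.1% in S2CK, so sex differed together with genotype. A cell with no Xist UMI was called male, whether or not it had a Y-linked UMI. Female cells that missed Xist can thus be among those called male. With 1 library per genotype no difference could be tested. Intervals are exact, at 95%, and cover counting error only, not the spread between animals, and PCR and capture do not make UMIs of 1 cell fully independent. A 3′ UMI count does not scale with transcript length, so levels of different genes are compared here as CPM.

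In SC-like cells, the induced members were higher in the library labelled P27NULL than in WT, with Fos, Fosb and Atf3 more than 2-fold higher, while Jund was at nearly the same level in both. Their summed level was 1781 CPM (1670 to 1898) in WT, 3956 (3758 to 4162) in P27NULL and 2029 (1918 to 2145) in S2CK. P27NULL was the highest library, and S2CK lay above WT by 0.19 on the log2 scale (0.07 to 0.31). The steady sum was 2215 CPM (2091 to 2345) in WT, 2335 (2184 to 2494) in P27NULL and 1756 (1653 to 1864) in S2CK. The log2 ratio of P27NULL to WT was 1.15 (1.03 to 1.27) for the induced sum and 0.08 (-0.05 to 0.20) for the steady sum. The ratio of induced to steady UMIs, which does not depend on how libraries are scaled, went from 0.804 in WT to 1.69 in P27NULL and 1.16 in S2CK, so that S2CK was above WT by 0.52 on the log2 scale (0.35 to 0.70).

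**Figure D1:**
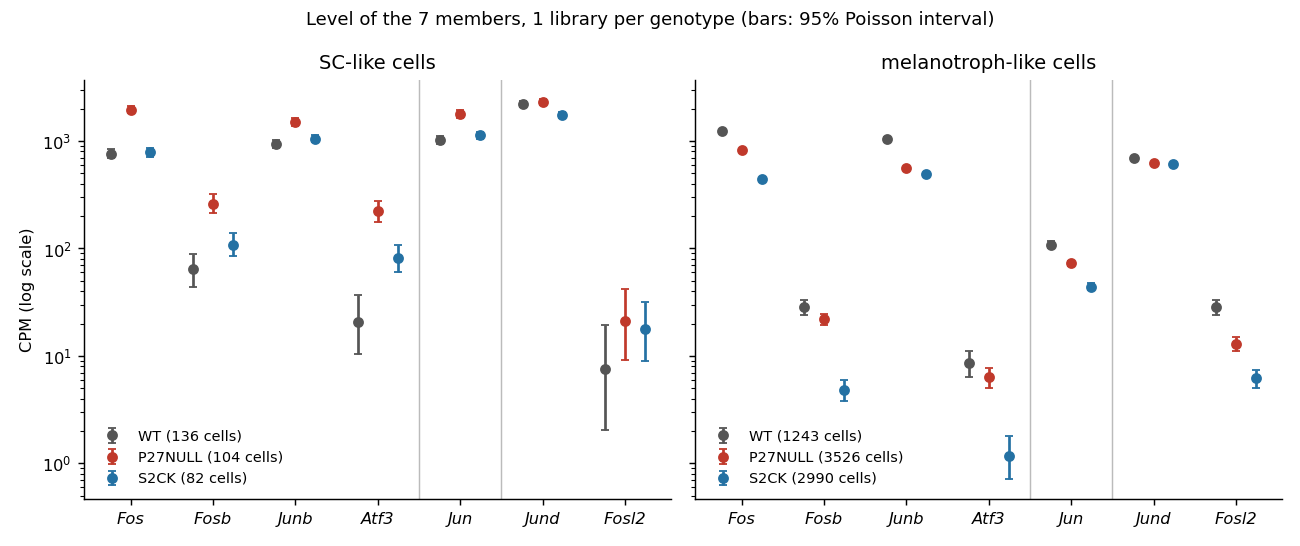
Level of each member in CPM (log axis) in SC-like and melanotroph-like cells of the 3 libraries, 1 point per library with its exact 95% Poisson interval, in the order induced members, Jun, steady members. From WT to P27NULL and S2CK, the CPM of Fos stood at 763, 1965 and 786 in SC-like and at 1238, 824 and 446 in melanotroph-like cells.

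Fos, the partner of all Jun proteins (GRCm38.p6 chromosome 12, 85473890 to 85477274, as for the other genes with no overlapping gene), was counted at 763 CPM (690 to 841) in WT, 1965 (1826 to 2111) in P27NULL and 786 (717 to 859) in S2CK. P27NULL was the high library, with a log2 ratio of 1.36 (1.19 to 1.54) to WT, and the interval of S2CK against WT held 0 (-0.15 to 0.24). Fosb, a close relative of Fos (chromosome 7, 19302696 to 19310118), followed the same order at a lower level, with 63.9 (44.2 to 89.3), 262 (213 to 319) and 109 CPM (84.3 to 138). Its log2 ratio of P27NULL to WT was 2.03 (1.46 to 2.64). Atf3 (chromosome 1, 191170296 to 191183333) had the largest ratio of the 7, 3.43 on the log2 scale (2.51 to 4.48), from 11 UMIs in WT and 84 in P27NULL, or 20.7 (10.3 to 37.0) and 222 CPM (177 to 275). In S2CK it was at 81.2 CPM (60.2 to 107), above WT by 1.97 (1.01 to 3.06) and below P27NULL by 1.45 on the log2 scale. Atf3 thus differed from Fos in that its S2CK value lay above WT.

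Junb, a weaker activator than Jun that can restrain it (chromosome 8, 84976909 to 84978748), was at 934 (854 to 1020), 1507 (1386 to 1636) and 1053 CPM (974 to 1138) in WT, P27NULL and S2CK. Jun, the strongest activator of the Jun proteins (chromosome 4, 95049036 to 95052222), was at 1013 (929 to 1102), 1785 (1653 to 1925) and 1133 CPM (1051 to 1220). Both were highest in P27NULL, by 0.69 (0.51 to 0.87) and 0.82 (0.65 to 0.98) on the log2 scale over WT, which is less than Fos, Fosb and Atf3. Jund (chromosome 8, 70697739 to 70700616), the Jun protein of resting cells, was the most abundant member of SC-like cells in every library, at 2208 (2083 to 2338), 2314 (2163 to 2472) and 1739 CPM (1636 to 1846). It was the lowest in S2CK, with a log2 ratio to WT of -0.34 (-0.47 to -0.22), and its P27NULL and WT intervals overlapped. Fosl2 (chromosome 5, 32136472 to 32157840) had only 4, 8 and 11 UMIs in the SC-like cells of the 3 libraries, and a difference was not detectable at this depth (log2 ratio of P27NULL to WT 1.49, interval -0.41 to 3.68).

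Fos, Fosb and Atf3 were at least 2-fold higher in P27NULL than in WT, 3 of 6 members with at least 20 UMIs in both libraries together, where 4.3% of all 5858 such genes were, and none of the 6 was at least 2-fold lower (3.04% of all genes). With every cell thinned to 1000 UMIs, so that deep cells weigh no more than shallow ones, 5 of 6 members were at least 2-fold higher (4.28% of all genes) and the induced sum had a log2 ratio of 1.72. The median log2 ratio was 1.09 over the 6 members and 0.01 over all genes. The same 3 members were at least 2-fold lower in S2CK than in P27NULL (7.44% of all genes) and none was higher (5.04%), and against WT only Atf3 was at least 2-fold higher in S2CK (5.45%) and none was lower (5.86%). With thinned cells the induced sum of S2CK was 0.56 above WT, in place of 0.19. These comparisons share libraries, so the values of P27NULL enter both the first and the second. The study itself drew attention to Fos, Junb and Jun in SCs of these same libraries, so their direction here is not independent evidence. Summed over 11 heat shock genes, the level was 5366, 4411 and 3149 CPM, lower in P27NULL than in WT, and the median mitochondrial share was 5.28, 4.93 and 8.08%. The part of dissociation in these levels was not tested.

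Cell sex and depth moved with these values. Set against only the 18 SC-like cells of P27NULL that were called female, S2CK, which was mostly female, differed in the induced sum by -0.56 (-0.81 to -0.30) in place of -0.96 (-1.07 to -0.85), and in the induced-over-steady ratio by -0.33 (-0.73 to 0.07), an interval that held 0. Atf3 then pointed the other way, 0.39 (-1.24 to 2.72). Males alone gave a difference of P27NULL from WT of 1.20 (1.08 to 1.32) for the induced sum. Cells with fewer UMIs held less of the induced members: below the median depth of their type the induced sum was 511 CPM in WT, 2739 in P27NULL and 844 in S2CK, and above it 2061, 4290 and 2242. P27NULL was the highest library on both sides of the median. The SC-like cells of all libraries also held UMIs of Pomc, the hormone precursor of melanotrophs, at 25982, 12281 and 18771 CPM, and RNA released by melanotrophs can enter any droplet. If all of this Pomc came with melanotroph RNA, at the ratio seen in melanotroph-like cells of the same library, that RNA would hold 19.5% of the induced sum of WT SC-like cells, 3.28% of that of P27NULL and 6.34% of that of S2CK, and without it the ratio of P27NULL to WT was 1.32 in place of 1.15.

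Counted per cell, more SC-like cells held a Fos UMI in P27NULL and those that did held more of them, though its few female cells did not show the higher share. After every cell was thinned to 1000 UMIs, Fos was found in 28.0% of 125 WT cells (20.3 to 36.7), 53.8% of 104 P27NULL cells (43.8 to 63.7) and 30.5% of 82 S2CK cells (20.8 to 41.6), and in 38.2, 62.5 and 46.3% before thinning. A cell with Fos held a mean of 1.77, 3.59 and 2.52 UMIs of it. Split by sex call, Fos was found in 27.8% of the 18 thinned female cells of P27NULL, near the WT share, and in 59.3% of the 86 male ones. In the 72 female cells of S2CK it was found in 33.3%. For the 3 libraries in the same order as above, the other members were as follows. Fosb was found in 4.80, 18.3 and 6.10% of thinned cells, Junb in 37.6, 49.0 and 34.1%, Jun in 44.0, 58.7 and 48.8%, and Atf3 in 0.80, 10.6 and 7.32%. Jund was found in 77.6, 79.8 and 74.4%. The intervals of Jund overlapped in the 3 libraries, whereas those of Fosb and Atf3 did not overlap between WT and P27NULL. At 2000 UMIs per cell Fos was found in 52.1, 73.8 and 44.3%. No cell type here is known to lack AP-1 genes, so no share could serve as a background other than the one that goes with Pomc.

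SC-like cells fell unevenly between those with no induced member and those with several. None of the 4 was found in 55.2% of WT, 36.5% of P27NULL and 57.3% of S2CK cells at 1000 UMIs. At least 3 of the 4 were found in 4 of 125, 19 of 104 and 7 of 82 cells. The variance of the induced sum over cells was 2.40, 5.13 and 3.81 times its mean, where independent sampling alone gives a ratio near 1, while that of the steady sum was 1.74, 1.59 and 1.87 times its mean. Fos and Junb were found in the same SC-like cells: the odds of a Junb UMI were 14.9-fold higher in WT cells with Fos than in those without (interval 5.23 to 45.8), 13.0-fold in P27NULL (4.64 to 37.6) and 12.1-fold in S2CK (3.54 to 42.9). These 3 odds ratios overlapped widely, so a difference between libraries was not detectable with these cells. For Fos and Jund the odds ratios were 2.06 (0.67 to 7.57), 5.10 (1.56 to 19.3) and 5.75 (1.18 to 54.5).

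In melanotroph-like cells, where P27NULL again names the library so labelled, the order of the libraries was another one, with WT highest and S2CK lowest for Fos, Fosb, Junb and Jun. The induced sum was 2327 CPM (2289 to 2366) in WT, 1409 (1389 to 1429) in P27NULL and 951 (936 to 965) in S2CK, and no intervals overlapped. The steady sum was 718 (697 to 740), 637 (623 to 650) and 611 CPM (600 to 623). The log2 ratio of P27NULL to WT was -0.72 (-0.76 to -0.69) for the induced and -0.17 (-0.23 to -0.12) for the steady sum, and that of S2CK to WT was -1.29 (-1.32 to -1.26) and -0.23 (-0.28 to -0.18). From P27NULL to S2CK the induced sum was lower by 0.57 and the steady sum by 0.06, and with both other scalings of the libraries the steady sum pointed the other way, 0.075 with TMM factors and 0.066 with a total that leaves out Pomc and the mitochondrial and ribosomal protein genes. Induced UMIs exceeded steady UMIs 3.24-fold in WT, 2.21-fold in P27NULL and 1.55-fold in S2CK.

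Fos was counted at 1238 CPM (1210 to 1266) in WT, 824 (809 to 839) in P27NULL and 446 (436 to 456) in S2CK, so that each library was lower than the one before. Junb was at 1053 (1027 to 1079), 557 (545 to 570) and 499 CPM (488 to 509), which places most of its difference between WT and P27NULL, a log2 ratio of -0.92 (-0.97 to -0.87). Fosb was at 28.3 (24.2 to 32.9), 22 (19.6 to 24.6) and 4.82 CPM (3.83 to 5.98), which places most of its difference between P27NULL and S2CK, a log2 ratio of -2.19 (-2.56 to -1.83). Atf3 was also lowest in S2CK, with 8.54 (6.36 to 11.2), 6.31 (5.04 to 7.79) and 1.18 CPM (0.72 to 1.82), and its P27NULL and WT intervals overlapped. With cells thinned to 1000 UMIs, the log2 ratio of Atf3 in P27NULL to WT pointed the other way, 0.28 in place of -0.44 (-0.95 to 0.09), so the order of these libraries was not settled for Atf3. Jun was at 108 (100 to 117), 72.5 (68.1 to 77.2) and 44.2 CPM (41.1 to 47.5), against 1013, 1785 and 1133 CPM in SC-like cells. Jund was at 690 (669 to 711), 624 (611 to 637) and 605 CPM (594 to 617), the narrowest span of the 7 members, and its order between P27NULL and S2CK turned with the scaling, 0.089 and 0.081 on the log2 scale in place of -0.04. Fosl2, grouped with the steady members, did not stay with Jund: it was at 28.3 (24.2 to 32.9), 12.8 (11 to 14.9) and 6.17 CPM (5.05 to 7.47), a log2 ratio of S2CK to WT of -2.20 (-2.56 to -1.84).

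Fosl2 was the 1 of 7 members at least 2-fold lower in P27NULL than in WT (1.29% of all 12930 genes with at least 20 UMIs), and none was at least 2-fold higher (3.5%). With either of the other scalings Junb was so too, where 1.72% (TMM factors) and 1.76% of all genes were. Fosb, Fosl2 and Atf3, 3 of 7, were at least 2-fold lower in S2CK than in P27NULL (4.55% of all genes) and none was higher (1.78%). Against WT, 6 of 7 were at least 2-fold lower in S2CK, all but Jund (3.14% of all genes), and none was higher (3.12%). The median log2 ratio of the 7 was -0.58, -0.89 and -1.47 in the order P27NULL against WT, S2CK against P27NULL and S2CK against WT, and over all genes it was 0.10, -0.16 and -0.04. Within each library the cells below the median depth held more of the induced members, 2940 against 2037 CPM in WT, 1836 against 1265 in P27NULL and 1074 against 882 in S2CK, and the order of the libraries was the same on both sides of the median. The heat shock sum was 4117, 4156 and 3558 CPM, and its part in the result was not tested. Among melanotroph clusters the induced sum spanned 2034 to 2918 CPM over 5 clusters of WT, 705 to 1923 over 7 of P27NULL and 661 to 1340 over 10 of S2CK, so that the clusters of WT did not overlap with those of the other libraries.

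Between WT and P27NULL, melanotroph-like cells differed mostly in how many held no induced member, and S2CK differed from P27NULL both in this share and in the UMIs of the cells that held one. At 1000 UMIs per cell, none of the 4 was found in 15.7% of WT (13.7 to 17.8), 43.4% of P27NULL (41.7 to 45.0) and 54.2% of S2CK cells (52.4 to 56.0). Cells that held any had a mean of 2.98, 2.91 and 2.27 induced UMIs, so P27NULL and WT were nearly alike in the UMIs of each such cell. Fos was found in 66.6% (63.9 to 69.3), 44.8% (43.2 to 46.5) and 29.4% of cells (27.8 to 31.1), and in 92.7, 62.0 and 58.2% before thinning. Junb was found in 60.1, 37.5 and 32.2%, Jun in 10.9, 6.52 and 4.11%, Fosb in 3.18, 2.44 and 0.54%, Atf3 in 0.33, 0.57 and 0.13% and Fosl2 in 3.27, 1.42 and 0.54%. Jund was found in 47.7, 46.6 and 43.7%, with overlapping intervals for WT and P27NULL. The shares of P27NULL pool unlike sexes. Fos was found in 64.1% of its 637 female and 40.5% of its 2878 male cells, and Junb in 51.0 and 34.5%, so its female cells lay nearer to WT.

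**Figure D2:**
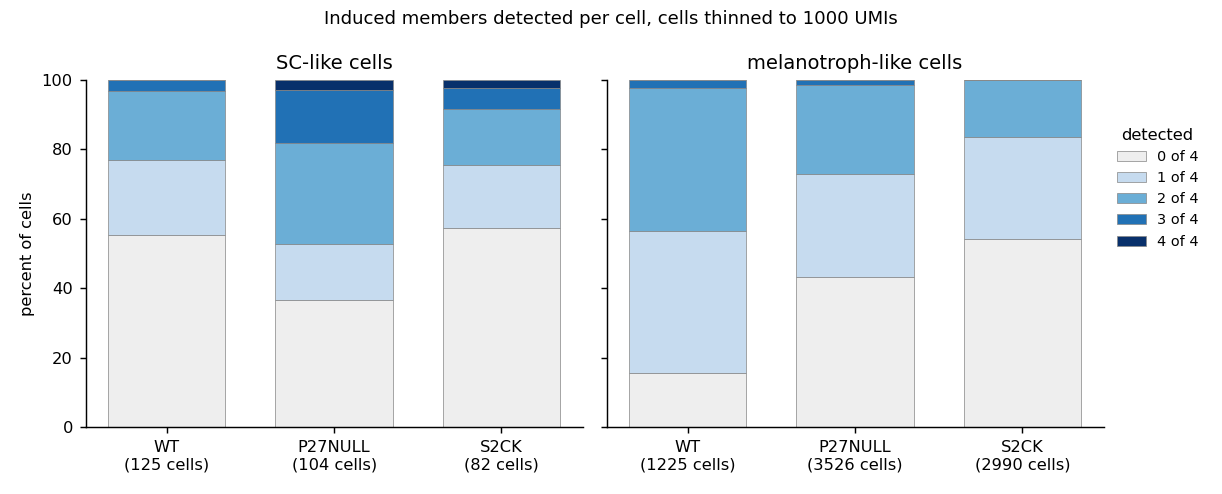
Percent of SC-like and melanotroph-like cells of each library in which 0 to 4 of the induced members Fos, Fosb, Junb and Atf3 had a UMI, every cell thinned to 1000 UMIs. Among melanotroph-like cells the share with none was 15.7, 43.4 and 54.2% in WT, P27NULL and S2CK, and among SC-like cells it was 55.2, 36.5 and 57.3%.

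The cells of WT, which was male, were also more alike than those of P27NULL, which pooled sexes with unlike induced levels, and of S2CK. The spread was not split by sex, so the part of sex in it was not tested. The variance of the induced sum over melanotroph-like cells was 1.67 times its mean in WT, 2.57 in P27NULL and 2.33 in S2CK, although the mean itself was highest in WT, and that of the steady sum was 1.19, 1.23 and 1.16 times its mean. The pairing of Fos with Junb followed this order. In WT the odds of a Junb UMI were 1.59-fold higher in cells with Fos (1.24 to 2.04), in P27NULL 5.34-fold (4.59 to 6.21) and in S2CK 4.06-fold (3.42 to 4.82), and the WT interval lay apart from the others. Both members were found together in 1.06, 1.55 and 1.70 times as many cells as the product of their shares gives. For Fos with Jund the odds ratios were 1.36 (1.07 to 1.75), 1.62 (1.41 to 1.85) and 1.52 (1.30 to 1.79), which overlap. Within P27NULL the odds ratio of Fos with Junb was 3.25 (2.28 to 4.64) among female and 5.66 (4.77 to 6.72) among male cells, both above WT, and among female cells of S2CK it was 4.03 (3.38 to 4.79). These are cells of 1 library each and say nothing of the spread between animals.

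In the library labelled P27NULL, melanotroph-like cells called female held more of the induced members than those called male, and both held the steady members at like levels. The induced sum was 2169 CPM (2116 to 2223) in 637 female cells and 1209 (1188 to 1230) in 2878 male cells, a log2 difference of female to male of 0.84 (0.80 to 0.89). Fos was at 1307 against 696 CPM, Fosb at 47.3 against 15.1, Junb at 798 against 494, Jun at 143 against 53.3 and Atf3 at 16.2 against 3.68. Jund was at 643 against 621 CPM, a log2 difference of 0.05 (-0.03 to 0.12), and the interval of Fosl2 held 0 (-0.94 to 0.24). The study lists the P27NULL pool as male and female and states no number of animals for either sex, so sex and animal cannot be told apart. Pomc was at 162761 against 125695 CPM and the heat shock sum, lower in females, at 3448 against 4352. Set against WT, which was male, the male cells gave a log2 ratio of -0.95 (-0.98 to -0.91) for the induced sum and the female cells -0.10 (-0.14 to -0.06). With male cells of P27NULL alone 4 of the 7 members were at least 2-fold lower than in WT (1.54% of all genes), in place of 1.

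**Figure D3:**
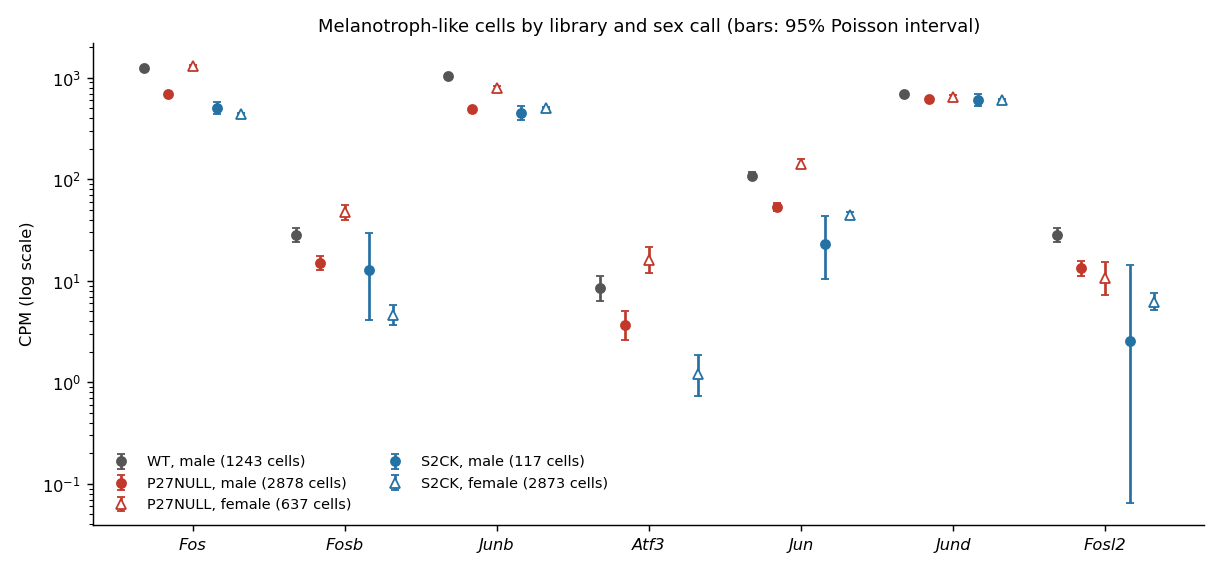
Level of each member in CPM (log axis) in melanotroph-like cells split by library and by sex call, circles male and triangles female, with exact 95% Poisson intervals. In P27NULL Fos was at 1307 CPM in female and 696 in male cells and Jund at 643 and 621. Male S2CK cells had no Atf3 UMI and no point is drawn.

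In S2CK the 2873 female and 117 male melanotroph-like cells did not show this difference. The cells called male were shallower, with a median of 3335 against 5064 UMIs, and female cells that missed Xist can be among them. The comparison can therefore not decide whether the sexes differed in S2CK. The induced sum was 950 CPM (935 to 965) in female and 971 (876 to 1074) in male cells, a log2 difference of -0.03 (-0.18 to 0.12), and Fos was at 445 and 507 CPM. Between the female cells of both libraries, a comparison added after seeing the data, the log2 ratio of S2CK to P27NULL was -1.19 for the induced sum (-1.23 to -1.15), in place of -0.57. Among SC-like cells of P27NULL the direction was the other one, with an induced sum of 2984 CPM in 18 female and 4099 in 86 male cells (log2 difference -0.46, interval -0.72 to -0.21). Fosb alone of the induced members was higher in the females there, 412 against 240 CPM, with an interval that held 0 (-0.01 to 1.5). In SC-like cells of S2CK, 72 female cells gave 2078 CPM and 10 male cells 515. Against WT, which was male, their log2 ratios were 0.22 (0.10 to 0.35) and -1.79 (-2.85 to -0.90), the latter from 10 UMIs. Depth differed with the sex call in SC-like cells. The median was 4352.5 UMIs in female and 1980.5 in male cells of S2CK, and 1958 and 2399 in those of P27NULL. SC-like cells with fewer UMIs held less of the induced members, so sex call and depth cannot be told apart here.

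Across the marker-named cell types, the induced members spanned a wider range than Jund. Fos was highest in corticotroph-like cells of every library, the other Pomc-producing cells of the pituitary, at 1571 CPM in WT, 3337 in P27NULL and 1938 in S2CK. Its lowest values were in endothelial-like cells of WT (132 CPM), pituicyte-like cells of P27NULL (177) and T- or NK-like cells of S2CK (167), which gives an 11.9-, 18.8- and 11.6-fold span. Junb was also highest in corticotroph-like cells, at 2019, 2502 and 2674 CPM. Jun had another order, highest in SC-like cells of all 3 libraries, at 1013, 1785 and 1133 CPM, before macrophage-like cells in WT (412) and corticotroph-like cells in P27NULL (654) and S2CK (632), and these intervals did not overlap with those of SC-like cells. Jund was also highest in SC-like cells and its span was 3.79-, 5.32- and 3.29-fold. In the order of Jund, 1 of 9 neighbouring pairs of cell types had separate intervals in WT, 1 of 9 in P27NULL and 3 of 8 in S2CK, so most neighbours did not differ beyond counting error.

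**Figure D4:**
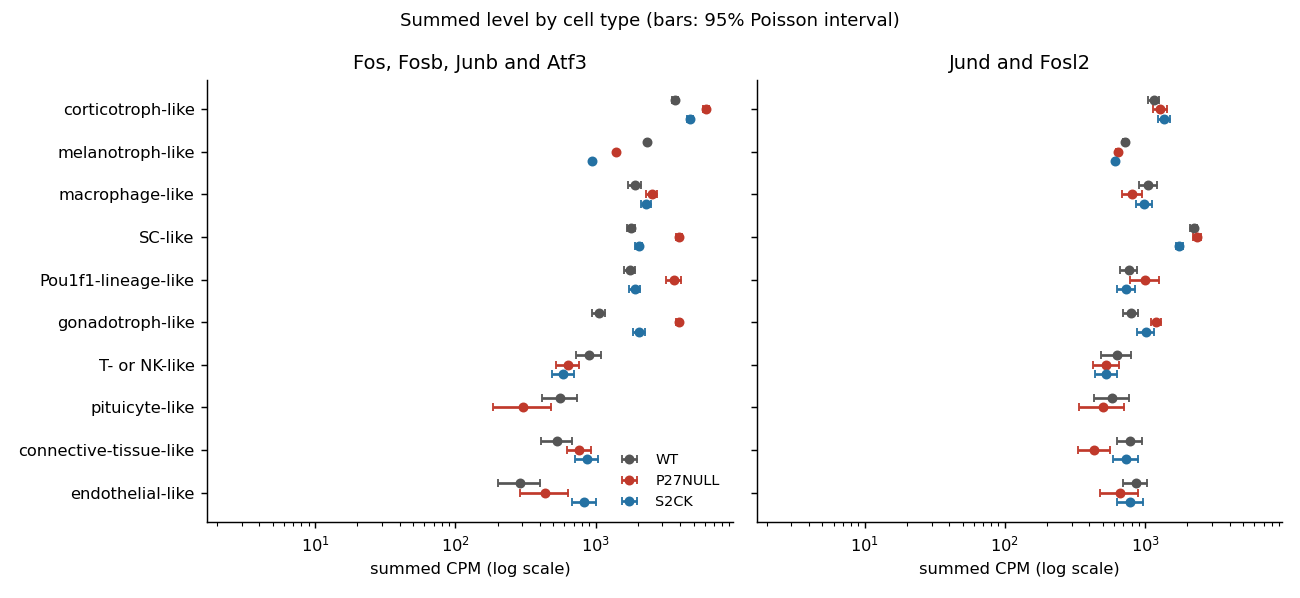
Summed level of the induced and of the steady members in CPM (log axis) by marker-named cell type and library, with exact 95% Poisson intervals; S2CK had no pituicyte-like cells. The induced sum of corticotroph-like cells was the highest of every library, at 3674 CPM in WT, 6115 in P27NULL and 4729 in S2CK.

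Fosb, Atf3 and Fosl2 were sparse and were at 0 in some types. Fosb had no UMI in 5 of 10 types in WT, 3 of 10 in P27NULL and 2 of 9 in S2CK, and its highest level was 79.5 CPM in corticotroph-like cells of WT and 262 and 109 CPM in SC-like cells of P27NULL and S2CK, in each library with no separate interval from the next type, which was SC-like in WT and corticotroph-like in the others. Atf3 was highest in macrophage-like cells of WT (32.6 CPM) and S2CK (118), and in P27NULL it was at 222 CPM in SC-like and 204 in macrophage-like cells. In none of the 3 libraries was the leading type of Atf3 separate from the next, which in WT was T- or NK-like. Fosl2 was highest in endothelial-like cells of WT (41.2 CPM) and P27NULL (31.3), and no pair of neighbours in its order had separate intervals in any library. In gonadotroph-like cells Fos was at 390 CPM in WT, 1961 in P27NULL and 785 in S2CK.

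The induced members were higher relative to the steady ones in P27NULL than in WT in most cell types. The melanotroph-like cells, with both sexes of P27NULL together, were the only type whose interval lay below 0. The log2 difference of the induced-over-steady ratio was 1.08 (0.90 to 1.25) in SC-like, 0.57 (0.34 to 0.81) in corticotroph-like, 1.29 (1.03 to 1.56) in gonadotroph-like, 0.66 (0.21 to 1.12) in Pou1f1-lineage-like and 0.78 (0.40 to 1.16) in macrophage-like cells. It was -0.55 (-0.61 to -0.49) in melanotroph-like cells. There the male cells of P27NULL alone gave -0.77. In the female ones the induced and steady sums had like log2 ratios to WT, -0.10 and -0.14. Of 10 types, the interval lay above 0 in 7, below 0 in 1 and held 0 in 2. These last were pituicyte-like, at -0.65 (-1.74 to 0.43), and T- or NK-like cells, at -0.25 (-0.89 to 0.39). From P27NULL to S2CK the difference lay below 0 in 6 of 9 types, at -0.55 (-0.72 to -0.38) in SC-like and -0.51 (-0.56 to -0.46) in melanotroph-like cells, above 0 in none, and held 0 in 3. From WT to S2CK it lay above 0 in 5 of 9 types and below 0 in melanotroph-like cells, at -1.06 (-1.12 to -1). The types of 1 library share its animals and its dissociation and are not replicates.

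**Figure D5:**
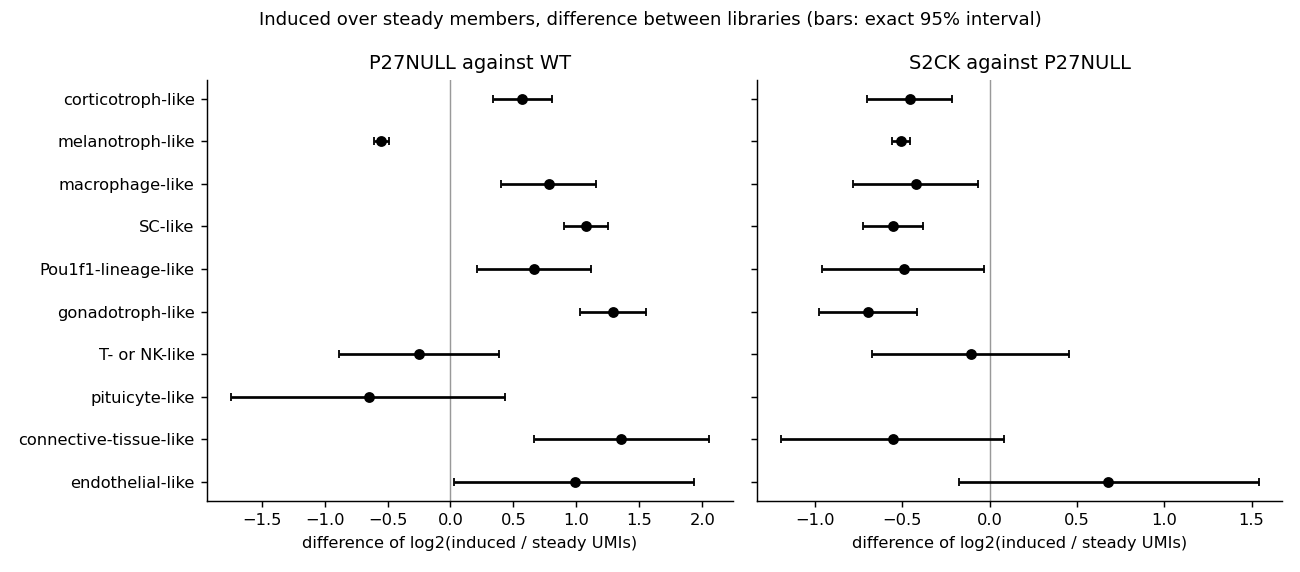
Difference between libraries of the log2 ratio of induced to steady UMIs, by cell type, with exact 95% intervals. P27NULL against WT lay above 0 in 7 types and at -0.55 in melanotroph-like cells of both sexes together, and S2CK against P27NULL lay above 0 in no type.

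The same estimate was made for the induced members in these smaller populations. At the melanotroph ratio to Pomc, released RNA would hold 84.2, 110.4 and 51.2% of the induced sum in T- or NK-like cells of WT, P27NULL and S2CK, 94.8, 64.6 and 25.9% in connective-tissue-like cells, and 72.9 and 150.4% in pituicyte-like cells of WT and P27NULL, so those values are read as background, and the connective-tissue-like cells are 1 of the 7 types above 0. It would hold 8.13, 1.81 and 9.87% in gonadotroph-like and under 1% in Pou1f1-lineage-like cells (0.98, 0.88 and 0.88%), where the difference between P27NULL and WT pointed the way it did for SC-like cells. The share of female cells also differed between these libraries, as in SC-like cells, and its part in these values was not tested.

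The genes whose level followed Fos most closely over 27 sums, 9 cell types in 3 libraries, were Junb (Pearson r = 0.92), Btg2 (0.85), Ier2 (0.85), Egr1 (0.83) and Tob1 (0.78), among 4752 genes with at least 1000 UMIs. Fosb, which had fewer UMIs, had r = 0.85 with Fos, Jund 0.61, Jun 0.52, Atf3 0.35 and Fosl2 -0.14. Jund was most like Jun (0.86), Aldoc (0.86), Kcnk1 (0.76), Mia (0.76) and Egln2 (0.74). Mia was 1 of the markers used to name SC-like cells, where Jund was highest. The sums share libraries, depth and cell numbers, and the coefficients describe these sums only.

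The other genes of the AP-1 pathway were counted from lists fixed by name, and the median of the other IEGs had the sign of the induced sum in both cell types for P27NULL against WT. Of 32 listed IEGs other than the members, 23 had at least 20 UMIs in SC-like cells of P27NULL and WT together, of which 6 were at least 2-fold higher in P27NULL (4.3% of all genes) and 1 lower (3.04%), with a median log2 ratio of 0.84, against 0.01 over all genes. Among them were Nfkbiz, an inhibitor-like regulator of NF-kB (1.78), Klf4 (1.72) and Klf10 (1.32), both zinc finger factors, and the nuclear receptor Nr4a2, which was lower (-1.83). In CPM, again from WT to P27NULL and S2CK, Ier2 was at 1757, 3681 and 1354 and Egr1 at 235, 579 and 261, and the study drew attention to both in these libraries. From P27NULL to S2CK 1 of 24 was at least 2-fold higher (5.04% of all genes) and 7 lower (7.44%), with a median of -0.56 against -0.10 over all genes, and with Cyr61 (-1.70), Nr4a1 (-1.51), Ier2 (-1.44) and Arc (-1.33) the largest. In melanotroph-like cells 1 of 27 was at least 2-fold higher (3.5% of all genes) and 5 lower (1.29%) in P27NULL than in WT, with a median of -0.34 against 0.10. In S2CK against WT 1 was higher (3.12%) and 11 lower (3.14%), with a median of -0.75 against -0.04. The phosphatase gene Dusp1, which shuts off MAPK, was at 431, 159 and 108 CPM and Nr4a1 at 134, 58.1 and 22.6.

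Between P27NULL and WT, 1 upstream kinase gene and 1 upstream factor gene were past 2-fold, both in melanotroph-like cells. Of 12 MAPK pathway kinases, 5 could be compared between P27NULL and WT in SC-like cells and none was past 2-fold (median 0.07), and in melanotroph-like cells 1 of 12 was at least 2-fold lower (1.29% of all genes) and none higher, with a median of 0.12 against 0.10 over all genes. Of 9 upstream factors, Mef2c was the 1 past 2-fold in melanotroph-like cells of P27NULL against WT, and it was lower (1.29% of all genes). Its level in the 3 libraries was 39.0, 17.5 and 6.17 CPM. The ternary complex factor Elk3 was at 53.1, 52.1 and 20.3. From P27NULL to S2CK all 9 upstream factors were lower in melanotroph-like cells and 2 of them, Mef2c (-1.50) and Elk3 (-1.36), at least 2-fold (4.55% of all genes), with a median of -0.50 against -0.16 over all genes. None of 5 upstream factors was past 2-fold in SC-like cells of P27NULL against WT. Of 12 dimer partners, 8 could be compared between P27NULL and WT in melanotroph-like cells and none was past 2-fold (median 0.07).

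Of 13 listed AP-1 targets, 3 could be compared between P27NULL and WT in each of the main cell types. In SC-like cells of P27NULL against WT 1 was at least 2-fold lower (3.04% of all genes) and none was higher (4.3%). This was Timp1, an inhibitor of matrix proteases (-1.27), whose interval held 0 (-3.07 to 0.23). In melanotroph-like cells Ccnd1, which encodes cyclin D1, stood at 56.6 CPM in WT, 6.45 in P27NULL and 1.76 in S2CK, log2 ratios to WT of -3.13 (-3.49 to -2.79) and -5.00 (-5.59 to -4.46), and Vegfa, an angiogenic factor, was at 1.17, 8.80 and 1.76 CPM. Of the 11 heat shock genes, 9 were compared in SC-like cells of P27NULL against WT, with a median of -0.03. Dnajb1 was at least 2-fold higher (1.05), as were 4.3% of all genes, and Hspb1 at least 2-fold lower (-1.18), as were 3.04%. None of 11 was past 2-fold in melanotroph-like cells of the same comparison (median -0.06), where Fos, Fosb and Junb were lower.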

How the data were processed

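Droplet libraries of the IL, 1 per genotype, were analysed from the UMI counts per gene and cell that the authors deposited. Per the submitters' processing notes these were made with Cell Ranger 3.0.2, STAR 2.5.1b, R 3.6.0 and Seurat 3 on mm10, and the study's methods state that cells with few genes or a high mitochondrial share were removed. Totals were 8332285, 15588317 and 19239147 UMIs in WT, P27NULL and S2CK.

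Cells were clustered within each library and once over all libraries together (scanpy 1.11.5 on Python 3.11.15, igraph 0.11.9, scipy 1.17.1, numpy 2.4.6; scaling to 10000, 2000 variable genes, 20 components, 20 neighbours, Leiden resolution 1) and named "X-like" from marker lists. SC-like and melanotroph-like names came from the clusters of the library itself, and the other names from the joint clusters. Cells with 2 clashing names (35, 5 and 30) were left unnamed. The thresholds for a name, 3 detected markers, a relative marker level of 0.3 and a lead of 0.1, were set after seeing the data, and 49, 50 and 41 cells stayed unnamed. Scrublet called 11 of 9661 cells, too few to rely on, so no doublet was removed and the 268 cells with the highest scores were left out as an alternative. Cell sex was called from Xist and Y-linked genes. Cells with no Xist UMI were called male, with or without a Y-linked UMI, and cells with Xist and no Y-linked UMI female. Cells with both were left out of the splits by sex. UMIs were summed over cells of a type and library and divided by the total UMIs of those cells. CPM sums have exact Poisson, shares exact Clopper-Pearson, and log2 ratios and odds ratios exact conditional intervals at 95%. A count of 0 allows 3 counts. Ratios of 2-fold were counted among genes with at least 20 UMIs in both libraries together. Shares and co-detection used cells thinned to 1000 UMIs by seeded draws without replacement. Log2 ratios and their intervals, thinning and the observed-to-expected ratio of co-detection were tested on simulated data, and the other steps were not.

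The members and gene lists were chosen with earlier results of these data known. The 7 members were always named, with the 5 genes most like Fos and Jund (Pearson r of log2(CPM + 10), at least 1000 UMIs, types with at least 15 cells in every library) and at most 4 genes per list with the largest ratio. The lists were dimer partners, upstream kinases, upstream factors, other IEGs, AP-1 targets and heat shock genes. The result of the dimer partners in SC-like cells is not reported here. Alternatives were cell filters of 500 genes or 1000 UMIs, thinning, no doublet-like cells, joint clustering, Leiden resolution 2, TMM factors (edgeR 4.0.16, R 4.3.3), totals that leave out Pomc and the mitochondrial and ribosomal protein genes, cells of 1 sex (male P27NULL against WT, S2CK as a whole against female P27NULL), no minimum of 20 UMIs, and, added after seeing the data, female cells of both P27NULL and S2CK and the removal of what goes with Pomc. Promoters came from RefSeq windows on GRCm38.p6, in which all 7 members were found.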

Additional observations from a re-analysis of the deposited data

Results flagged for a closer look

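Several ratios pointed in opposite directions in SC-like and melanotroph-like cells, with neither interval holding 0, and these differences between cell types were not tested, since each library is 1 sample. For P27NULL against WT the log2 ratio was 1.15 in SC-like and -0.72 in melanotroph-like cells for the induced sum. For single members it was 1.36 and -0.59 for Fos, 2.03 and -0.36 for Fosb, 0.82 and -0.58 for Jun, and 0.69 and -0.92 for Junb. For S2CK against WT the induced sum had 0.19 and -1.29, Fosb 0.77 and -2.55, Junb 0.17 and -1.08, and Atf3 1.97 and -2.86. Jund is not among them in either comparison.

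Within melanotroph-like cells of P27NULL, female and male cells lay on opposite sides of WT for some members, which was also not tested. The log2 ratio to WT was 0.079 in female and -0.83 in male cells for Fos, 0.74 and -0.91 for Fosb, 0.40 and -1.02 for Jun, and 0.93 and -1.21 for Atf3. For Junb both sexes were below WT, at -0.40 and -1.09.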

How the results depend on the processing

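The induced sum kept its direction in all 57 comparisons made under alternatives, as did the induced-over-steady difference. None of these alternatives matched the sexes of S2CK and WT. Against WT, the 10 male SC-like cells of S2CK had log2 ratios of -1.79 (-2.85 to -0.90) for the induced sum and -0.62 for the steady sum. The former came from 10 UMIs and lay on the other side of WT from that of all SC-like cells of S2CK (0.19). These cells were called male for want of an Xist UMI and had a median of 1980.5 UMIs. Female cells that missed Xist can be among them. The steady sum changed sign in 3 of 57, of which 1, -0.044 for P27NULL against WT in SC-like cells thinned to 1000 UMIs, started from an interval that held 0. Single members changed sign in 8 of 376, and in 4 of these the interval had not held 0. The other 4 were Jund (-0.051 thinned, -0.0070 with TMM factors) and Fosl2 (2.34, S2CK against P27NULL, thinned) in SC-like cells and Atf3 (0.28, thinned) in melanotroph-like cells. Where no reason is given below, the cause was not tested. No paired analysis was possible because each genotype is 1 library. Depth limits Fosl2 and Atf3 most, and the female P27NULL and male S2CK SC-like cells are few.

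Thinning to 1000 UMIs, by which each cell counts equally, gave in SC-like cells an induced log2 ratio of 1.72, a difference from the steady sum of 1.77 and 5 members past 2-fold for P27NULL against WT, values of -1.16 (induced), -0.24 (steady) and -0.92 (difference) for S2CK against P27NULL, and 0.56, a difference of 0.85 and 0 members past 2-fold for S2CK against WT. In melanotroph-like cells it gave -0.61 and a difference of -0.49 for P27NULL against WT, -0.67 (induced) and -0.19 (steady) for S2CK against P27NULL, and -0.31 (steady) and -0.96 (difference) for S2CK against WT.

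TMM factors gave -0.83 for the induced sum of SC-like cells in S2CK against P27NULL. In melanotroph-like cells they gave -0.81 (induced), -0.26 (steady) and 2 members past 2-fold for P27NULL against WT, -0.43 (induced), 0.075 (steady, turned) and 0.089 (Jund, turned) for S2CK against P27NULL, and -1.24 (induced) for S2CK against WT. Totals that leave out Pomc and the mitochondrial and ribosomal protein genes gave, for S2CK against P27NULL, -0.83 (induced) and -0.28 (steady) in SC-like cells, and in melanotroph-like cells -0.82, -0.27 and 2 members past 2-fold for P27NULL against WT, and -0.44 (induced), 0.066 (steady, turned) and 0.081 (Jund, turned) for S2CK against P27NULL.

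Cells of 1 sex were male P27NULL cells against WT, and S2CK as a whole against female P27NULL cells. They gave in melanotroph-like cells -0.95 (induced), -0.77 (difference) and 4 members past 2-fold for P27NULL against WT, and -1.19 (induced) and -1.09 (difference) for S2CK against P27NULL. In SC-like cells of S2CK against P27NULL they gave -0.56 (induced), -0.23 (steady), -0.33 (difference), 1 member past 2-fold and 0.39 for Atf3, which turned with 3 Atf3 UMIs in the female P27NULL cells. With female cells of both libraries, chosen after seeing the data, the same values were -0.52, -0.22, -0.30, 1 and 0.44 (Atf3, turned), and in melanotroph-like cells -1.19 (induced) and -1.09 (difference). Without the minimum of 20 UMIs, 2 members of SC-like cells were past 2-fold for S2CK against WT. Without what goes with Pomc, chosen after seeing the data, the induced ratio and its difference from the steady one in SC-like cells were 1.32 and 1.31 for P27NULL against WT and 0.38 and 0.74 for S2CK against WT.

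The ratio of observed to expected cells with both Fos and Junb was 1.41 in SC-like cells of WT at 2000 UMIs, 1.39 (2000 UMIs) and 1.32 (not thinned) in melanotroph-like cells of P27NULL and 1.33 (not thinned) in those of S2CK. That of Fos and Jund was 1.06 and 1.05 in P27NULL and 1.03 (not thinned) in S2CK. Deeper cells give higher shares by construction. At 2000 UMIs the shares in SC-like cells of WT, P27NULL and S2CK were 52.1, 73.8 and 44.3% for Fos, 63.4, 78.7 and 55.7% for Junb, 69.0, 80.3 and 64.3% for Jun and 100, 98.4 and 97.1% for Jund, with Fosb at 11.3% in WT and 15.7% in S2CK, Fosl2 at 4.23% in WT and Atf3 at 21.3% in P27NULL. In melanotroph-like cells they were 85.2, 56.1 and 42.0% for Fos, 79.6, 52.3 and 45.2% for Junb, 16.4, 10.1 and 7.71% for Jun, 71.3, 67.1 and 68.0% for Jund, 6.16, 4.2 and 1.09% for Fosb and 4.62, 2.14 and 1.16% for Fosl2, with Atf3 at 1.37% in WT.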

Other observations

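A cluster of P27NULL melanotroph-like cells led by cell cycle genes, among them Top2a, held the induced members at 1654 CPM, within the range of the other melanotroph clusters of that library.

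The induced UMIs were spread unevenly over cells. At 1000 UMIs per cell, the tenth of melanotroph-like cells with the most of them held 27.1% of all induced UMIs in WT, 37.9% in P27NULL and 45.1% in S2CK, and the highest single cell held 13, 16 and 12. The highest SC-like cell held 8, 24 and 10.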
